A study of Mus musculus with 4 samples.

Results

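The genes described here are 8 genes of the MHC class II system, the transactivator gene Ciita, the invariant chain gene Cd74, the chain genes H2-Aa, H2-Ab1 and H2-Eb1, and the peptide-loading genes H2-DMa, H2-DMb1 and H2-DMb2. They were found by exact match of their symbols among the 52459 genes listed, and all 8 were present. The group was chosen by earlier results of these data, its higher counts in old than in young intestinal stem cells (ISCs), so its values for that contrast are given as a description, without a test. Full length (FL) RNA-seq had been made from wild-type C57/Bl6 mice, with 2 libraries from animals of 2 months (young, ISC_2mth) and 2 from animals of 22 months (old, ISC_22mth). The labels name no treatment. Each library held the ISCs of a pool of 5 animals, so differences between single animals, or between cells of a pool, were not measured. The cells had been sorted from small intestinal crypts as CD31-, CD45-, EPCAM+, CD44high and EPHB2high cells with medium CD24, which leaves out endothelial cells and leukocytes by design. The RNA went through SPIA, an isothermal amplification that covers the whole transcript but adds no molecular identifiers.

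MHC class II molecules are pairs of an alpha and a beta chain that carry peptides from endosomes to the cell surface, where CD4+ T cells read them. Professional antigen-presenting cells make them at all times, whereas most other cells make them after interferon gamma, and the epithelium of the small intestine is among the tissues known to carry them, ISCs included. CIITA does not bind DNA itself but is recruited by factors on the X and Y boxes of class II promoters, RFX on the X box and NF-Y on the Y box. CD74 fills the groove of new class II molecules and leads them to endosomes, and H2-DM then exchanges its remnant, CLIP, for peptide.

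The promoters of 4 members are shown because the X and Y boxes are the sequence that joins class II genes to CIITA. They are RefSeq windows of GRCm38.p6, from 250 bases before to 50 after a transcription start, printed 5′ to 3′ on the strand of the gene. Capitals mark the letters of the X box core (AGNAACNG, N for any base) and of the Y box core (ATTGG, or CCAAT where it lies on the reverse strand), which a search on both strands found. The windows lie at chr17:34305617-34305916 (plus strand, H2-Eb1), chr17:34152941-34153240 (plus strand, H2-DMb1), chr17:34287774-34288073 (minus strand, H2-Aa) and chr17:34144999-34145298 (plus strand, H2-DMb2).
H2-Eb1: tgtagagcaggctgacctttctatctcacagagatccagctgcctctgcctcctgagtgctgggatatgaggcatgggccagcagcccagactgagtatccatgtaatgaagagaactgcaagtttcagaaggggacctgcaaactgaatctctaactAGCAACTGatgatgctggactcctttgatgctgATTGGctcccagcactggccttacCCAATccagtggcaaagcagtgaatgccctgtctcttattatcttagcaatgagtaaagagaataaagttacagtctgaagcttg
H2-DMb1: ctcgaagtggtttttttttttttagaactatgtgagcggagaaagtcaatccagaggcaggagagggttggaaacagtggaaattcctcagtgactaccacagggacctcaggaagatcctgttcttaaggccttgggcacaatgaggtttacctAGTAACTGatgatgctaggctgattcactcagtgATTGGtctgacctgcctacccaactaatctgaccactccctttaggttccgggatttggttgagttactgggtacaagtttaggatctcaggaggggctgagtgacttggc
H2-Aa: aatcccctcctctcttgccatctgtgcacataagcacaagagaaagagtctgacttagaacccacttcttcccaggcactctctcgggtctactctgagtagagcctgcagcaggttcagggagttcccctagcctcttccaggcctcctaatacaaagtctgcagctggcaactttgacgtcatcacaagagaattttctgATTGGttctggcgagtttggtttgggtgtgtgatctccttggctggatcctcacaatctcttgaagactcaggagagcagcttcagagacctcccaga
H2-DMb2: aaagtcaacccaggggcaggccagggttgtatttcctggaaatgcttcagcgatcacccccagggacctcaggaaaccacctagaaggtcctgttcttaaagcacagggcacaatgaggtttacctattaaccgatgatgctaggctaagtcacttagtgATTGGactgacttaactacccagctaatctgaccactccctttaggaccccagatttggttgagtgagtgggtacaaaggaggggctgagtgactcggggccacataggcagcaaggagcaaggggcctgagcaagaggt

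An X box core followed by a Y box core on the same strand stood in the windows of H2-Eb1 and H2-DMb1, with 33 and 34 bases between their starts. Counted from the transcription start, the X box core began at position -92 in H2-Eb1 and at -95 in H2-DMb1. H2-Aa and H2-DMb2 held a Y box core only, at -48 and -90. H2-DMa had 2 windows, of which 1 held a Y box core at -198 and the other held neither core. Among all 32851 RefSeq windows, 37.41% held a Y box core, 17.42% an X box core and 0.344% the pair at a spacing of 25 to 45 bases. In the windows of the members no X box core overlapped a Y box core. Windows of Ciita, Cd74 and H2-Ab1 were not used here. A match shows only that these letters stand in the window. Where no match was found, a box with other letters may still be present, as only these strings were searched.

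**Figure D1:**
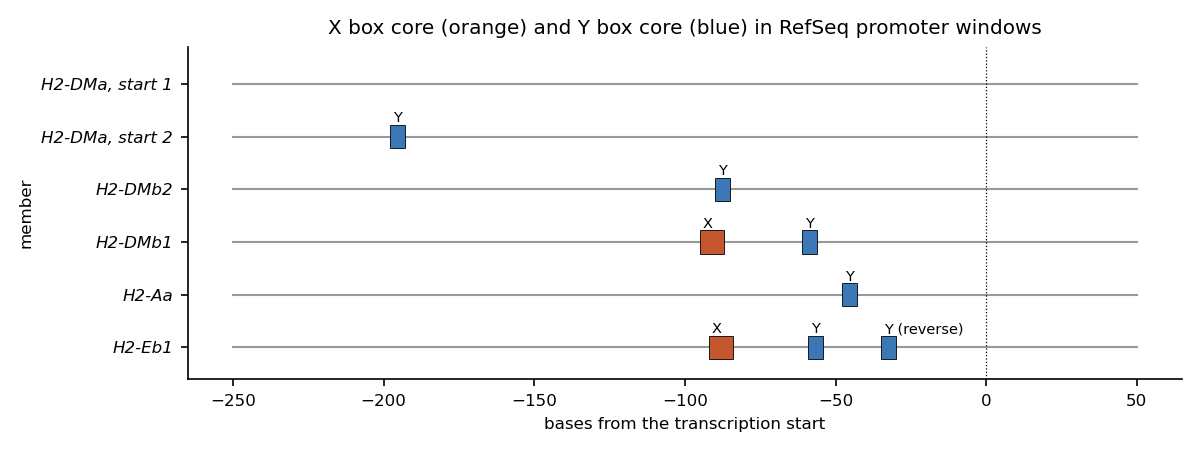
X box cores (orange) and Y box cores (blue) in 6 RefSeq promoter windows of 5 members, plotted by distance in bases from the transcription start (dotted line). The pair of X and Y cores stands in the windows of H2-Eb1 and H2-DMb1.

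The counted depth was between 11662654 and 15975698 reads per library, and between 3852178 and 4593004 of these reads were not from the mitochondrial genome. Mitochondrial genes took 62.6% and 65.7% of the counts in the young pools and 73.8% and 72.9% in the old pools. Values are therefore given as counts and as normalized CPM, which are counts per one common library total after scaling by TMM, a method that sets the typical gene equal between libraries. A floor of 3 counts was worth between 0.199 and 0.245 normalized CPM. Intervals and floors cover counting error only, as an amplified molecule can give many reads. Of the 8 members, 7 had a count in at least 1 library and 6 passed the filter for testing, which asked for over 5 reads and over 1 CPM in any library.

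Ciita, on chromosome 16 from 10480059 to 10528418 (GRCm38, plus strand), encodes the transactivator that class II promoters need. It had 12 and 18 counts in the young pools and 34 and 43 in the old pools. The old pools stood apart from the young ones, with a mean of 3.04 ± 0.67 normalized CPM (SD, n = 2) against 1.01 ± 0.258 (SD, n = 2). The fitted log2 fold change of old against young ISCs was 1.58 with a standard error of 0.48. In these bulk libraries, more cells that express a gene and more RNA of it per cell cannot be told apart. The exons of Ciita overlap those of Dexi, on the opposite strand, over 329 bp, and whether the counting used strand is not given in the sources used here.

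Cd74, on chromosome 18 from 60803848 to 60812652 (plus strand), was the most abundant member in every library. Its counts were 63 and 79 at 2 months, against 298 and 363 at 22 months. The old pools, at 22.5 and 29.7 normalized CPM, stood far from the young pools, at 4.34 and 5.23. The gap between the lowest old and the highest young pool was 17.3 normalized CPM, more than the distance between the pools of either age. The log2 fold change was 2.44 with a standard error of 0.21, the smallest error among the 6 members that were fitted. Leaving out single pools gave values from 2.23 to 2.63.

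H2-Aa and H2-Ab1, on chromosome 17 from 34282744 to 34287823 (minus strand) and from 34257689 to 34269419 (plus strand), encode the alpha and the beta chain of I-A. H2-Aa had 12 and 8 counts at 2 months, against 32 and 76 at 22 months. Its old pools did not overlap the young ones, but old replicate 2 had 2.57 times the normalized CPM of old replicate 1. The log2 fold change was 2.65 with a standard error of 0.52, and without old replicate 2 it was 1.83. H2-Ab1 had 36 and 52 counts in the young pools, against 76 and 110 in the old pools. Its old pools, at 5.74 and 8.99 normalized CPM, lay above the young pools at 2.48 and 3.44. The log2 fold change was 1.31 with a standard error of 0.31, the smallest of the 6 fitted members.

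H2-Eb1, on chromosome 17 from 34305867 to 34316674 (plus strand), encodes the beta chain of I-E. Its alpha chain gene is known to be defective in C57BL/6 mice, which carry no I-E on their cells, and the row for that gene, H2-Ea-ps, held 0 counts in all 4 libraries. H2-Eb1 itself had 8 counts in young replicate 1 and 0 in young replicate 2, where the Poisson interval reached 3.69 counts. The old pools had 30 and 46 counts, and so lay above both young pools. The log2 fold change was 3.43 with a standard error of 0.77, the largest of the 6 and the least certain among the chain genes, and limma voom gave 4.43. With young replicate 1 left out, the remaining young pool was at 0, and the old mean was 15.2 times a floor of 3 counts in that library. That floor lies below the upper end of the Poisson interval, so the fold can be lower. With young replicate 2 left out, the log2 fold change was 2.42.

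The H2-DM genes, whose products load peptide, had few counts. H2-DMa, from 34119541 to 34139101 on chromosome 17 (plus strand), had 5 and 4 counts at 2 months, against 15 and 8 at 22 months. It reached at most 0.939 CPM of the unscaled total and so was not tested. The Poisson intervals of its old counts, from 8.4 to 24.7 and from 3.45 to 15.8, overlapped those of its young counts, from 1.62 to 11.7 and from 1.09 to 10.2. Its exons overlap those of Brd2, on the opposite strand, over 360 bp. H2-DMb1, from 34153072 to 34160230 (plus strand), had 5 and 6 counts in the young pools, against 8 and 22 in the old pools. It passed the filter through old replicate 2 alone, and the 8 counts of old replicate 1 (Poisson interval 3.45 to 15.8) were within the counting error of the young pools. The log2 fold change was 1.66 with a standard error of 0.87.

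H2-DMb2, from 34143307 to 34151555 on chromosome 17 (plus strand), had 0 counts in all 4 libraries, where the Poisson interval reached 3.69 counts in each. The coding neighbours H2-DMb1 and H2-DMb2 are close copies, and 22.65% of the 50-base stretches of H2-DMb1 transcripts also stand in those of H2-DMb2. How reads that align to both were counted is not given in the sources used here, so the division of counts between them is uncertain.

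**Figure D2:**
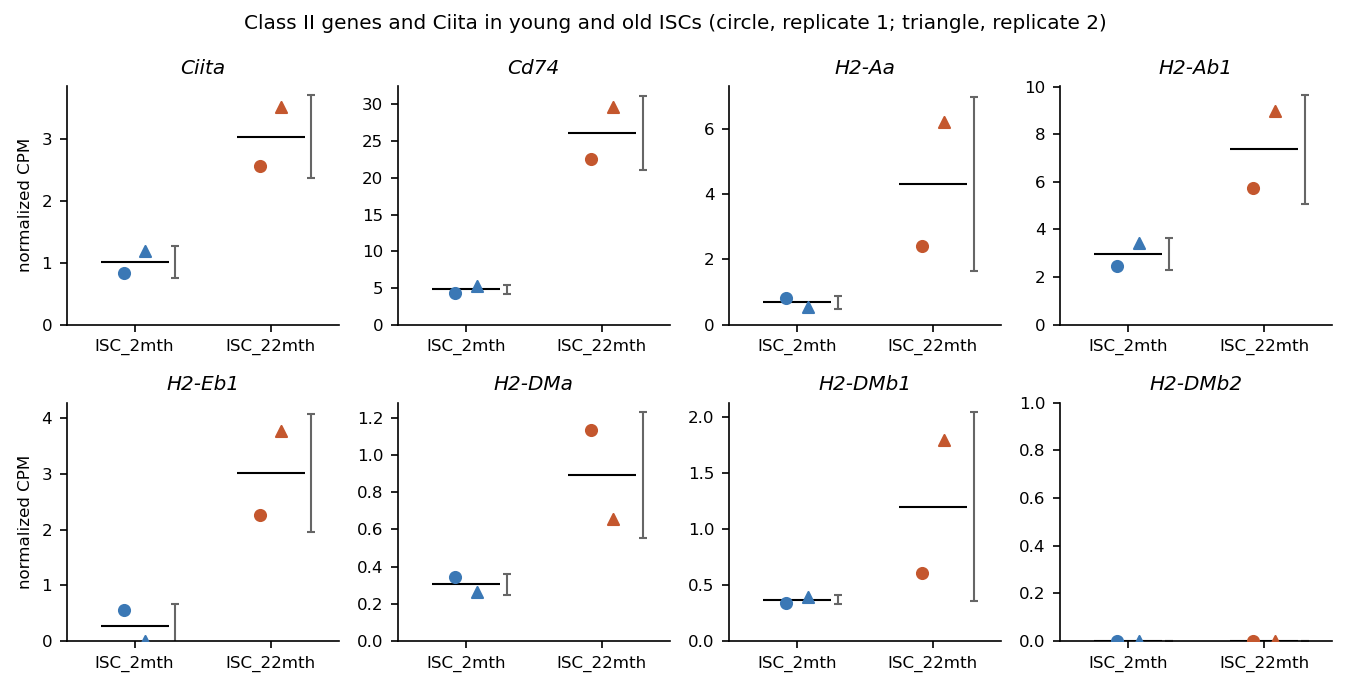
Normalized CPM of the 8 members in the 2 young (ISC_2mth, blue) and 2 old (ISC_22mth, orange) pools, with circles for replicate 1 and triangles for replicate 2. Lines give means and bars SD, cut at 0, and the 2 old pools lie above the 2 young pools for 7 members while H2-DMb2 is at 0.

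The levels of the members can be compared with each other only per length, as normalized CPM per kb of exon. The length used covers the exons of all annotated transcripts of a gene. Which transcripts were expressed was not measured, so the order depends on these lengths. In young ISCs, Cd74 led with 2.85 ± 0.373 (SD, n = 2), followed by H2-Ab1 with 1.15 ± 0.264. The other detected members all lay far lower, from H2-DMb1 with 0.221 ± 0.0221 to H2-DMa with 0.0883 ± 0.0164, and H2-DMb1, H2-Aa and H2-Eb1 overlapped in their ranges over the 2 pools. In old ISCs, Cd74 reached 15.5 ± 3.02 and H2-Ab1 2.87 ± 0.896. H2-Eb1 followed with 1.55 ± 0.544 and H2-Aa with 1.14 ± 0.707, with overlapping ranges, then H2-DMb1 with 0.715 ± 0.502, which overlapped H2-Aa above and Ciita below it. H2-Ab1 did not overlap its neighbours in this order. Ciita, with 0.319 ± 0.0703, and H2-DMa, with 0.259 ± 0.0983, were the lowest detected members and overlapped as well.

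Ratios within a library do not depend on its scaling, but those per length depend on the exon lengths used. Cd74 had 2.68 and 2.32 times the level of H2-Ab1 per length in the young pools, and 5.997 and 5.05 times in the old pools. The level of H2-Aa per length was 0.225 and 0.104 of that of H2-Ab1, its partner, at 2 months, and 0.285 and 0.467 at 22 months. Thus the ratio was higher in both old pools, and H2-Ab1 stayed above H2-Aa in every library. There were 5.25 and 4.39 counts of Cd74 per count of Ciita in young ISCs, against 8.76 and 8.44 in old ISCs. Of all member counts, Cd74 took 44.7% (95% Wilson interval 36.7 to 52.9) and 47.3% (39.9 to 54.9) in young ISCs and 60.4% (56.1 to 64.7) and 54.3% (50.5 to 58.1) in old ISCs. The ages were not tested for a difference in these ratios.

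Summed over the 8 members there were 141 and 167 counts at 2 months, against 493 and 668 at 22 months. The summed level was 9.71 and 11.0 normalized CPM at 2 months, against 37.2 and 54.6 at 22 months, a ratio of means of 4.43. Without Cd74 the sums were 5.37 and 5.82 against 14.7 and 24.9 normalized CPM. Old replicate 2 had the higher sum of the old pools, with and without Cd74, and H2-DMa was the one member higher in old replicate 1.

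Across all 13692 genes tested, edgeR's quasi-likelihood test called 309 at an FDR under 0.05, which is 2.26% of them, with 223 higher (1.63%) and 86 lower (0.628%) in old ISCs. In the same test, 2316 of the 13692 genes had an unadjusted p under 0.05. Of the 6 members tested, 4 were among the genes called higher, namely Cd74, H2-Aa, H2-Ab1 and H2-Eb1. The 6 members tested had no overlap between the ages, with the old pools higher, as had 24.0% of all genes tested. H2-Eb1 and H2-DMb1 passed the filter through old pools only, and this contrast chose the members, so nothing is read from these shares or from the median that follows. The median log2 fold change was 2.05 over the 6 members and -0.0049 over all genes tested. With total counts in place of TMM the median of all genes moved to -0.49 and the split to 96 genes higher and 4536 lower, while the log2 fold changes of the 6 members ran from 0.83 for H2-Ab1 to 2.93 for H2-Eb1.

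The other genes of the pathway were taken from lists written with earlier results of these data known. The H2-O genes H2-Oa and H2-Ob, whose products restrain H2-DM, had 0 counts in all 4 libraries, and so did H2-Eb2. Of the 11 genes for the X and Y box factors and the co-activators that bind CIITA, all were tested and none was called, nor did limma voom or DESeq2 call any. An unadjusted p under 0.05 was found for 2 of them, against 2316 of all 13692 genes tested. With total counts, which shift all genes down as given above, 6 of the 11 were called, all lower. By TMM their median on the log2 scale was -0.08. The lowest p values belonged to Carm1, an arginine methyltransferase, at -0.46 on the log2 scale (standard error 0.18, FDR = 0.206), and to Rfx5, the DNA-binding subunit of RFX, with -0.64 (0.27, FDR = 0.237). Rfx5 had 118 and 97 counts in the young pools, against 50 and 68 in the old pools.

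Of the 17 genes listed as inputs to Ciita, 14 were tested and 1 was called. This was Irf1, a transcription factor that interferon gamma induces and that acts on a Ciita promoter, and it fell by 0.78 on the log2 scale (standard error 0.19, FDR = 0.0336). Irf1 had 240 and 273 counts at 2 months, against 144 and 113 at 22 months, so its groups did not overlap, in the direction opposite to that of Ciita. It was not called without young replicate 1 (FDR = 0.0712), without young replicate 2 (FDR = 0.137), without old replicate 2 (FDR = 0.0574) or with DESeq2 (FDR = 0.0948). Ifng, the gene of interferon gamma, had 0 counts in every library, and the receptor genes Ifngr1 and Ifngr2 had log2 fold changes of 0.14 and -0.04. The median over the 14 tested genes was 0.04.

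Of the 13 genes for endosomal proteases, their helpers and lysosomal membrane proteins, 1 was called. Ctsh, a cathepsin with aminopeptidase activity, rose by 0.63 on the log2 scale (standard error 0.14, FDR = 0.0258), from 326 and 338 counts to 446 and 435. It was not called without young replicate 1 (FDR = 0.141), without young replicate 2 (FDR = 0.0925), with DESeq2 (FDR = 0.0501) or with total counts (log2 fold change 0.14, FDR = 0.526). Ctss, the cathepsin that cuts CD74 down to CLIP, had 121 and 200 counts at 2 months, against 215 and 122 at 22 months, and its groups overlapped. The median of the 13 was 0.11.

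Of the 14 genes for partners of CD74 and for co-stimulation, 5 were tested. None was called by edgeR's quasi-likelihood test, limma voom or DESeq2, and 0 had an unadjusted p under 0.05 in the first, while total counts called 1, Cd44, lower. Cd80, Cd86 and Cd40, which give T cells the second signal, had at most 1 count in any library. Cd44, the signalling partner of surface CD74 and a marker of the sort, stood at -0.24 on the log2 scale (standard error 0.13, FDR = 0.365). Cd274, an inhibitory ligand, had 4 and 15 counts in the young pools, against 22 and 9 in the old pools (log2 fold change 0.91, standard error 0.79, FDR = 0.6), and leaving out single pools gave from 0.21 to 2.09.

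The 11 genes of the class I pathway, which presents peptides from the cytosol, were all tested and none was called. An unadjusted p under 0.05 was found for 2 of them, against 2316 of all 13692 genes tested. DESeq2 called none, limma voom 1 and edgeR's likelihood ratio test 1. Fits without a filter, or with replicate number as a block, called 2 each, and total counts called 2, both lower. Their median log2 fold change was 0.42. B2m, the light chain of class I, stood at 0.42 on the log2 scale (standard error 0.12, FDR = 0.0684). It was called higher by limma voom (FDR = 0.0202, or 0.0197 with sample quality weights), without a filter (FDR = 0.0119) and with the block (FDR = 0.0239). DESeq2 did not call it (FDR = 0.0574), and its value turned to -0.067 with total counts. Psmb9, a subunit of the immunoproteasome, had 0.73 (0.22, FDR = 0.0904). It was called higher by the likelihood ratio test (FDR = 0.0444), without a filter (FDR = 0.0423) and with the block (FDR = 0.0238), but not by limma voom or DESeq2. Nlrc5, the transactivator of class I genes and a relative of Ciita, had 4 and 6 counts at 2 months, against 27 and 5 at 22 months. Its high value stood in old replicate 1 alone, whereas Ciita was high in both old pools. The difference between the class I and the class II genes was not tested.

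**Figure D3:**
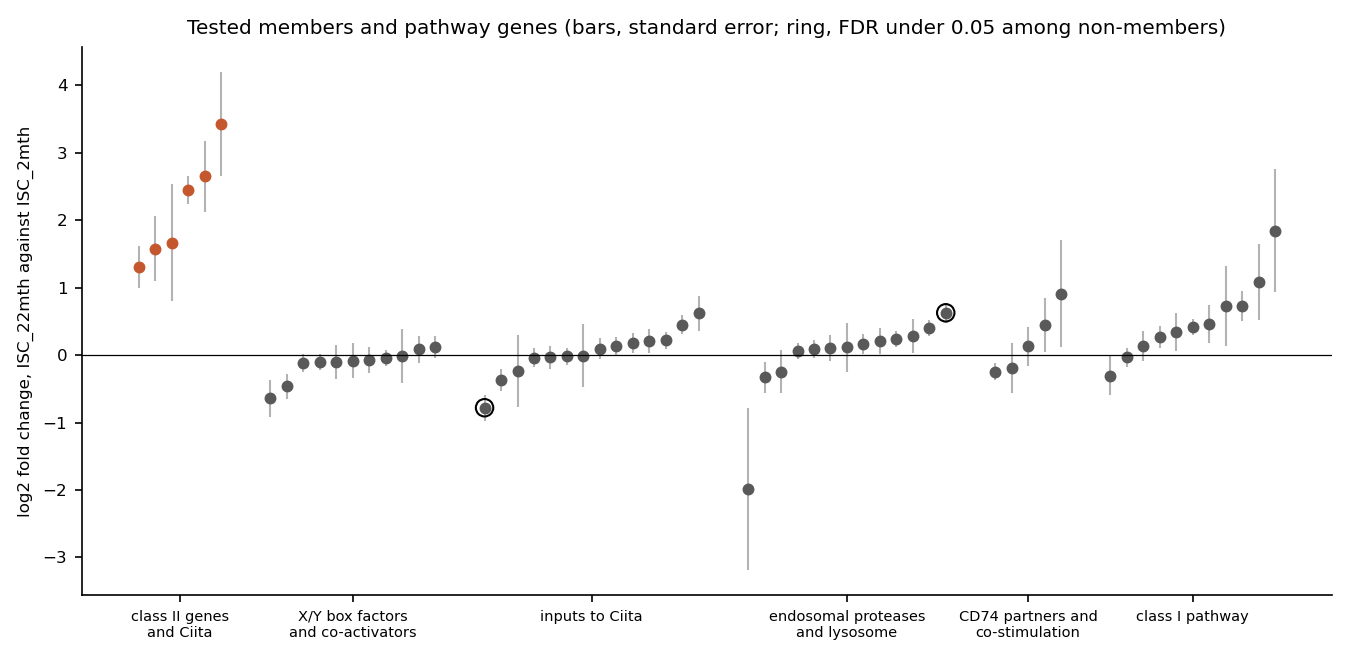
Log2 fold change of old against young ISCs, with its standard error, for the 6 members tested (orange) and the tested genes of 5 pathway lists (grey), ordered by value within a list. The rings mark Irf1 and Ctsh, the genes outside the members with an FDR under 0.05, and the members lie between 1.31 and 3.43.

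Along chromosome 17, 6 members lie among 20 listed genes between H2-Oa and Btnl2, a stretch of 277 kb. Of the 14 genes there that are no members, 6 were tested, and none was called by edgeR's quasi-likelihood test, limma voom or DESeq2, while total counts called Brd2 lower. In the first, 2 of the 6 had an unadjusted p under 0.05, against 2316 of all 13692 genes tested. These 6 are Brd2, Psmb9, Tap1, Psmb8, Tap2 and Btnl2, and their log2 fold changes ran from -0.07 to 1.09 with a median of 0.59. The chain genes H2-Ab1, H2-Aa and H2-Eb1 stand close together in this stretch, beside H2-Ob and H2-Eb2 with 0 counts. The antisense gene Gm20513, which lies across the start of H2-Eb1, had 2 counts in old replicate 2 and 0 in the other libraries. Psmb9 was called without young replicate 1 (log2 fold change 1.02) and without old replicate 1 (0.90).

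**Figure D4:**
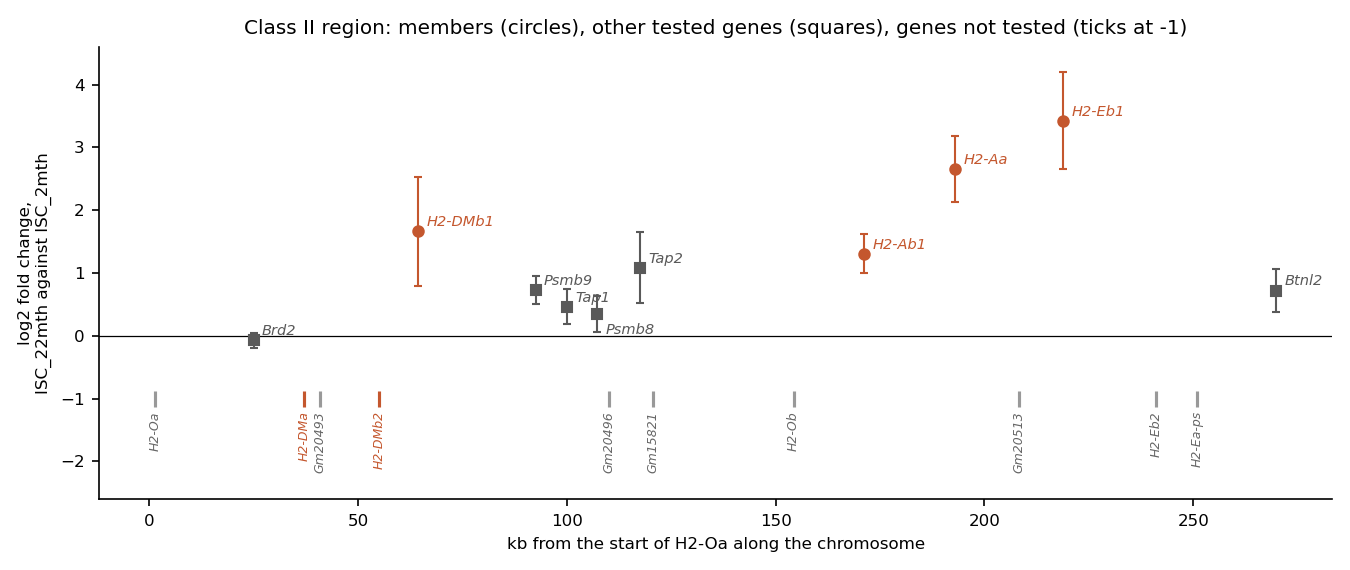
Log2 fold change of old against young ISCs, with its standard error, for the genes between H2-Oa and Btnl2, by distance in kb from the start of H2-Oa. Members are orange circles, other tested genes grey squares and genes not tested ticks at -1. The tested members lie between 1.31 and 3.43 and the tested genes that are no members between -0.07 and 1.09.

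The genes outside the members whose pattern was most like that of Cd74 were named by the root mean square (RMS) difference of log2 CPM, centred over the 4 libraries. They were Apba1 (RMS 0.167), Gm17619 (0.215), Parp3 (0.278), Nmnat2 (0.279) and Fmo1 (0.291). Parp3 had 5 and 4 counts in the young pools, against 37 and 34 in the old pools, and Fmo1, a flavin monooxygenase, had 11 and 20 against 45 and 80. These genes were picked for a pattern over the same 4 libraries, so no test of their age difference is given. Of the members, H2-Aa came closest to Cd74 with an RMS of 0.429, followed by Ciita with 0.474 and H2-Ab1 with 0.584. The measure rests on 4 libraries, and H2-Eb1, with its 0 in young replicate 2, had an RMS of 0.997.

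Class II genes are abundant in leukocytes, so the markers of those cells are given beside the members. Of 39 marker genes of leukocytes, B cells, dendritic cells and macrophages, and T cells and innate lymphoid cells (ILCs), 15 had 0 counts in all 4 libraries and 5 were tested. At 0 throughout were 2 of 7 leukocyte markers (Cd53 and Tyrobp), 4 of 9 B cell markers (Cd79a and Pax5 among them), 6 of 13 dendritic cell and macrophage markers (among them Itgax, Flt3, Adgre1, C1qa and C1qb) and 3 of 10 T cell and ILC markers (Cd3d and Cd3g among them). Others had counts, such as Ms4a1 of B cells with 2 and 3 in the young and 8 and 0 in the old pools, Fcer1g with 7 and 5 against 9 and 4, Lyz2 with 3 and 4 against 9 and 3, Cd8a with 1 and 0 against 4 and 3, and Cd68 with 63 and 41 against 30 and 22. Ptprc, which encodes the sort marker CD45, had 2 counts in old replicate 1 and 0 in the other libraries. The 34 markers that were not tested together had 34 and 43 counts at 2 months, and 58 and 21 at 22 months. Summed over all 39, the level was 27.8 and 31.0 normalized CPM at 2 months, against 33.7 and 37.3 at 22 months. One gene, Itgam, decided this direction, and with it left out, a choice made after its values were seen, the other 38 summed to 17.6 and 18.1 normalized CPM at 2 months, against 14.5 and 16.7 at 22 months. The leukocyte list summed to between 1.03 and 1.06 normalized CPM in young ISCs and to between 0.327 and 1.21 in old ISCs, and the B cell list to between 1.31 and 1.85 against between 0.818 and 2.19. The dendritic cell and macrophage list summed to between 18.5 and 19.2 against between 24.0 and 25.3 with Itgam, and to 8.96 and 5.49 against 4.84 and 4.66 without it, and the T cell and ILC list to between 6.27 and 9.66 against between 6.27 and 10.9. The one immune marker called was Itgam, an integrin chain of macrophages, with 148 and 196 counts at 2 months, against 254 and 252 at 22 months (log2 fold change 0.78, standard error 0.18, FDR = 0.0296). It was not called without young replicate 1 (FDR = 0.295), with DESeq2 (FDR = 0.0744) or with total counts (log2 fold change 0.30, FDR = 0.249), and its part in the class II values was not tested. Cr2, of the B cell list, had 14 and 11 against 13 and 4 (FDR = 0.874). The 5 markers of stroma and endothelium had at most 7 counts each.

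Markers of epithelial lineages also differed between the pools. The 7 ISC markers, led by Olfm4, were abundant in every library, at between 1866 and 2004 normalized CPM in sum in young ISCs and between 1712 and 1901 in old ISCs. None of them was called by edgeR's quasi-likelihood test, with 3 at an unadjusted p under 0.05, against 2316 of all 13692 genes tested. Of the 7, limma voom and DESeq2 each called 1, while total counts called 5. Of 8 enterocyte markers, 3 were called, all higher in old ISCs, namely Sis (log2 fold change 1.38), Fabp1 (2.35) and Fabp2 (0.93), of which DESeq2 did not call Fabp2 (FDR = 0.218). The list summed to between 325 and 432 normalized CPM in young ISCs and between 662 and 817 in old ISCs. Of 5 Paneth cell markers, 2 were called higher, Defa17 (log2 fold change 1.11) and Defa24 (0.87), but DESeq2 called none (FDR = 0.498 and 0.659). Without old replicate 1 neither was called (FDR = 0.117 and 0.402), and Lyz1, the most abundant of the list over the 4 libraries together, had 9910 counts in old replicate 1 but 2485 in old replicate 2 and 4509 and 3421 in young ISCs. Dclk1, 1 of 3 tuft cell markers, was called higher with 4 and 4 counts in the young pools, against 42 and 19 in the old pools (FDR = 0.0258). Its call was lost without young replicate 1 (FDR = 0.0689), young replicate 2 (FDR = 0.0511) or old replicate 1 (FDR = 0.248), and with limma voom (FDR = 0.103, or 0.0873 with sample quality weights). Pou2f3, the most abundant tuft marker over the 4 libraries together, had 32 and 42 against 30 and 25 counts. None of the 5 goblet cell and 2 tested enteroendocrine cell markers was called by edgeR's quasi-likelihood test, limma voom or DESeq2, nor had any an unadjusted p under 0.05 in the first, and their most abundant genes were Muc2 (log2 fold change 0.11) and Chgb (0.22). Other settings did call some, 4 goblet cell markers with total counts and 2 without old replicate 2, and 2 enteroendocrine cell markers without young replicate 2 and 1 without old replicate 2 or with a replicate block.

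The enterocyte and Paneth cell sums were highest in old replicate 1, at 817 and 1592 normalized CPM, whereas the class II sum was highest in old replicate 2, where the same lists stood at 662 and 586. Both the enterocyte sum and the class II sum were higher in each old pool than in the young pools. With 2 old pools, nothing is read from their order. With old replicate 1 left out the summed class II level was 2.396 higher on the log2 scale than in young ISCs, and with old replicate 2 left out 1.84. The part of enterocyte, Paneth cell and tuft cell RNA in the class II values was not tested.

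**Figure D5:**
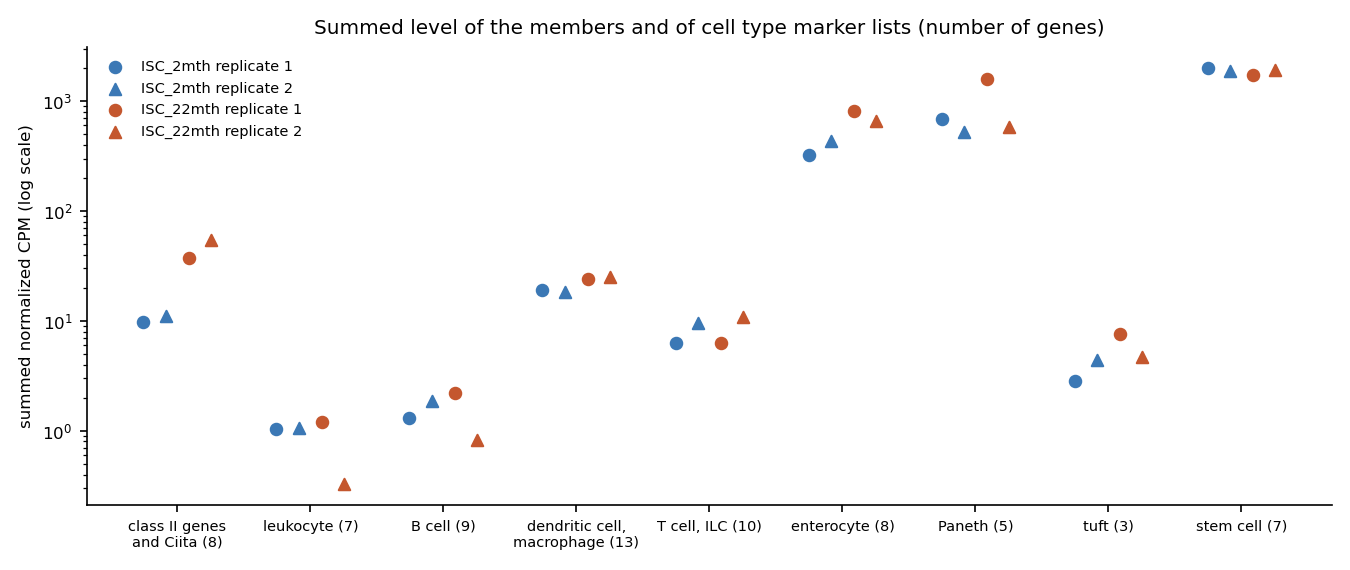
Summed normalized CPM (log scale) of the 8 members and of 8 marker lists in each library, with circles for replicate 1 and triangles for replicate 2, young pools in blue and old pools in orange. The members sum to 9.71 and 11.0 in the young and to 37.2 and 54.6 in the old pools, and of the immune lists the dendritic cell and macrophage list goes from between 18.5 and 19.2 to between 24.0 and 25.3 with Itgam (without it, from 8.96 and 5.49 to 4.84 and 4.66) while the other 3 overlap between the ages.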

How the data were processed

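The authors trimmed the single-end reads with Trimmomatic 0.30, aligned them to the mouse genome (GRCm38) with STAR 2.4.2a and counted them per annotated gene with featureCounts, and they deposited raw counts, which were used here without change. Strand setting and treatment of reads with several alignments are not given in the sources used here. Genes were kept at over 5 reads and over 1 CPM in any of the 4 libraries (13692 of 52459). Ages were compared with edgeR 4.0.16 (R 4.3.3) by TMM and the quasi-likelihood test with Benjamini-Hochberg adjustment over all genes tested (FDR, threshold 0.05). limma 3.58.1 and DESeq2 1.42.0 were alternatives, with other scalings, filters, a replicate block and each pool left out. The members and all lists were chosen with earlier results of these data known. Genes named are the 8 members, the called genes of a pathway list (at most 5, or else the 2 of lowest p), called neighbours, the 5 genes most like Cd74, and the called and most abundant marker of each list. Nlrc5, Ctss, the genes of the interferon gamma receptor, other immune markers, and genes at or near 0 counts were named after their values were seen, and some genes of the lists are not reported here. Gene positions and exon lengths came from GENCODE vM21 (GRCm38), matched by symbol, and promoters from RefSeq. The pools of 1 age were separate libraries, with a chi-square per gene of 10.3 (13642 genes) and 7.53 (13338 genes). With 2 pools per age, p-values measure the spread between pools only.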

Additional observations from a re-analysis of the deposited data

How the results depend on the processing

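The log2 ratio of the summed class II level was 2.15. It was 1.66 with total counts and between 1.84 and 2.396 with a pool left out, and tests other than edgeR's do not bear on it. The fitted members kept their direction in every refit made, 75 within the spread between replicates and 5 beyond it. The members were chosen on this contrast, with both old pools above both young pools, so nothing is read from the kept direction. H2-DMb1 had no fit without old replicate 2, and H2-Aa, H2-Eb1 and H2-DMb1 had none at a minimum of 10 counts in every library. The all-gene count of 309 became 197 with DESeq2, 611 with the likelihood ratio test, 4632 with total counts and 554 without a filter, and ran from 151 to 710 with a pool left out (without young replicate 1 it was 151, without old replicate 1 it was 652 and without old replicate 2 it was 710), where the lone pool is assumed to vary like those of the other age. The 2 pathway genes called became 4 with limma voom, with or without sample quality weights, 0 with DESeq2 (6 at an unadjusted p under 0.05), 16 with total counts (all lower) and 4 without a filter, and ran from 1 to 5 with a pool left out. The count of 0 for neighbouring genes became 1 with the likelihood ratio test, total counts and no filter, and was 0 or 1 with a pool left out. The replicate numbers pair nothing, since each pool holds other animals and same-numbered deviations had a correlation of -0.00015. With a replicate block 624 genes, 4 pathway genes and 1 neighbour were called. Directions turned with total counts for B2m (-0.067), Muc2 (-0.38) and Chgb (-0.23). With a pool left out the log2 fold change ran from -1.34 to 0.22 for Cr2, from -0.19 to 0.028 for Olfm4, from -0.40 to 1.48 for Lyz1, from -0.16 to 0.33 for Muc2 and from -0.51 to 1.82 for Chgb. The cause of these changes was not tested. H2-DMa, H2-DMb1 and H2-DMb2 had at most 22 counts in a library, and the part of depth and of shared reads in their values was not tested.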
